A study of Mus musculus with 4 samples.

Results

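Nos2, Acod1, Saa3, Gdf15, Il1a, Il1b, Ccl8 and Tnf are 8 inflammatory genes of myeloid cells. They were taken by symbol from the 32285 genes counted in this study, and they were chosen by their UMI counts in antigen-presenting cells (APCs), which were high in mice fed RGX-104. Their RGX-104 over control values are therefore a description of how they were chosen, and no test supports them. RGX-104 is an oral agonist of the liver X receptors (LXR). Wild-type mice with injected tumor cells were given chow with RGX-104 from day 3, or control chow, and the lymph nodes draining the tumor were taken on day 8 for sorting of T cells and APCs. Each chow is represented by 1 single-cell RNA library made with 10x 5' chemistry. The labels give neither the tumor line nor the strain, age or number of mice, so the spread between animals is unknown. Every interval below is a 95% interval for counting error within these 2 libraries.

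LXRs are nuclear receptors that sense oxidised cholesterol and switch on genes of cholesterol export, and in cultured mouse macrophages LXR agonists are known to restrain inflammatory genes such as Nos2 and Il1b. Nos2 makes nitric oxide from arginine, and Acod1 makes itaconate from a citric acid cycle intermediate. Both are induced in mouse macrophages by microbial products and interferon gamma. Saa3 is an acute phase protein made mostly outside the liver, Gdf15 is a stress-induced cytokine of the TGF-beta family, Il1a, Il1b and Tnf are inflammatory cytokines, and Ccl8 is a chemokine made by some tissue macrophages in mice. In GRCm38.p6 Nos2 and Ccl8 lie on chromosome 11, Il1a and Il1b on 2, Saa3 on 7, Gdf15 on 8, Acod1 on 14 and Tnf on 17.

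The starts of these genes are shown for the members that represent the patterns described below: Acod1 and Saa3, which were found almost only in RGX-104 myeloid cells, Il1b, which was broadly detected, and Ccl8, whose highest counts lay in macrophages with little or no Saa3. Each line is the 200 bases just before the transcription start in RefSeq's promoter table for GRCm38.p6, read 5' to 3' on the strand of the gene. The regions are chr14:103046812-103047011 (plus strand), chr7:46715677-46715876 (minus strand), chr2:129371140-129371339 (minus strand) and chr11:82114985-82115184 (plus strand). Capitals mark TATAAA, the core of a TATA box, in Acod1, Il1b and Ccl8. In Saa3 they mark GAAANNGAAA, letters of an interferon-stimulated response element, and then a match of TTGCNNAA, letters of a C/EBP site, on the other strand.
Acod1: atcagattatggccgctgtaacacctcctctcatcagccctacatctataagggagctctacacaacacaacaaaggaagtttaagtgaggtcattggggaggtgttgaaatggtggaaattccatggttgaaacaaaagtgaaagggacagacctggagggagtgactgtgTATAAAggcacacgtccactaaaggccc
Saa3: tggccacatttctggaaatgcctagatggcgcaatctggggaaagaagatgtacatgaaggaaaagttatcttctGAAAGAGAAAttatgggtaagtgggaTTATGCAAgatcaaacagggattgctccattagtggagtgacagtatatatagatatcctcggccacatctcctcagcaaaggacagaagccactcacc
Il1b: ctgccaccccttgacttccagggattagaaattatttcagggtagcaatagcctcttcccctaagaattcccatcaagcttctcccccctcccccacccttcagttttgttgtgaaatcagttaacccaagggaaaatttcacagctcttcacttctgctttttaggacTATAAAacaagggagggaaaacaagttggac
Ccl8: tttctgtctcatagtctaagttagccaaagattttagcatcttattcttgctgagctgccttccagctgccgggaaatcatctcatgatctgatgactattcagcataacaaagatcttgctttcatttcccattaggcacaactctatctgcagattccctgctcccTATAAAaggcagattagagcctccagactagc
TATAAA was present within 250 bases before the start in 5 of the 7 members found in the table, namely Acod1, Il1a, Il1b, Ccl8 and Tnf, each time on the sense strand and beginning 28 to 32 bases before the start. The same search of both strands found it in 12.4% of all 32851 promoters. Saa3 held GAAANNGAAA, found in 2.98% of promoters, and TTGCNNAA, found in 9.56%. Il1a held TGANTCA, letters of an AP-1 site found in 6.75% of promoters. No member matched GGGNNTTTCC (NF-kB, 1.41% of promoters) or the LXR direct repeat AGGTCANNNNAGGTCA (0.0152%), which says only that these letters are not in the 250 bases searched. None of the printed matches overlap each other. A match describes letters and not a site in use. For Saa3, Gdf15, Il1a and Il1b the RefSeq gene extends upstream of the start used in the table. The 7 members had 8 promoters there, because Gdf15 had a further start.

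The RGX-104 library held 949 annotated APCs with a median of 9043 UMIs per cell, and the control library held 782 with a median of 8051.5 UMIs. The library totals were 38480769 UMIs on RGX-104 and 31530931 on control. The authors named 10 types of APC, of which the cells named macrophages numbered 52 on RGX-104, or 5.48% of APCs (4.12 to 7.12), and 27 on control, or 3.45% (2.29 to 4.98). Those 2 sets of macrophages were not alike: their median depth was 11398 UMIs on RGX-104 and 4415 on control, and ribosomal protein genes took 11.0% and 26.4% of their UMIs. C1qb, a complement gene that defines many tissue macrophages, was found in 94.2% of RGX-104 and 44.4% of control macrophages, and at least 3 of 14 macrophage markers were found in 50 of 52 and 17 of 27. The 14 macrophage markers summed to 8853 CPM (UMIs of the genes over all UMIs of the cells, scaled to 1000000) in RGX-104 macrophages, with none at 0, and 5458 in control macrophages, with Siglec1 and Slc40a1 at 0. The part of these differences, and of those in the other marker lists that follow, in the values below was not tested, so the ratios of the members and the list counts in macrophages are also given for the cells with at least 3 markers. Some monocyte markers were higher with the members. Of the 10, 8 were found in RGX-104 macrophages, at a summed 20011 CPM of which Lyz2 gave 19392. In control macrophages 3 of 10 were found, at 15907 CPM of which Lyz2 gave 15860. These counts of markers found come from 621498 UMIs on RGX-104 and only 149874 on control. Plac8 was found in 31 of 52 RGX-104 and 0 of 27 control macrophages, Hp in 17 and 0, and Ly6c2 in 14 and 2. Ccr2 did not follow, at 29.0 CPM in 5 RGX-104 cells and 33.4 CPM in 1 control cell. Fn1 and Chil3 were at 0 in both, and Vcan had 1 UMI on RGX-104. Neutrophil markers summed to 121 CPM on RGX-104, all of it Csf3r in 22 of 52 cells and S100a8 in 9. On control they summed to 46.7 CPM, with Csf3r in 3 of 27 cells, S100a8 in 1 and Cxcr2, which was at 0 on RGX-104, in 3. The other 13 of 15 neutrophil markers on RGX-104 and 12 of 15 on control were at 0, S100a9 and Ly6g among them. The 9 T cell markers summed to 140 CPM in RGX-104 macrophages, with Cd8a at 0, and 300.3 in control macrophages, with none at 0. The libraries shared 95 cell barcodes, and 1 of them was an APC in both.

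Summed over all APCs, 7 of the 8 members were at least 1.5-fold higher on RGX-104, and Tnf, at 1.35-fold, was the exception. Of the 10346 genes with at least 50 UMIs over both libraries, 4.14% were that much higher. The rule used this contrast, so nothing is read from the 7 of 8. 

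Of the enzymes, Nos2 had 159 UMIs on RGX-104, a level of 16.0 CPM (13.6 to 18.7), and 0 on control. Setting 3 counts over the control APCs in place of the 0, Nos2 was at least 38.9-fold higher, and the exact interval of the ratio to 0 counts began at 31.3. Acod1 had 205 UMIs on RGX-104 (20.6 CPM) and 6 on control (0.821 CPM), a ratio of 25.1 (11.3 to 69.2). The Acod1 ratio was 9.45 as a mean of per-cell levels and 66.4 (18.1 to 553) without the top cell of each library. Few cells held either gene: a Nos2 UMI was found in 17 of 949 RGX-104 APCs and 0 of 782 control APCs, where a count of 0 allows a share of cells with a UMI of up to 0.384% (3 of 782), and Acod1 was found in 46 and 3 cells.

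Saa3 had 1814 UMIs on RGX-104 (182 CPM) and 8 on control (1.09 CPM), the highest ratio among the members with control UMIs at 166 (84.3 to 386). It was found in 56 RGX-104 APCs and 3 control APCs, and a single cell held 378 of the 1814 RGX-104 UMIs. Gdf15 had 328 UMIs on RGX-104 and 9 on control, a ratio of 26.8 (13.9 to 59.0), in 24 and 5 cells. Both genes thus rested on few cells, and 6 of the 8 control Saa3 UMIs lay in 1 mono cell. The Gdf15 ratio was 11.2 with equal weight for each APC type and 7.02 as a mean of per-cell levels.

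Of the cytokines, Il1b and Tnf were more widely spread, and Il1a was not. Il1b had 8837 UMIs on RGX-104 (888 CPM) and 4037 on control (552 CPM), a ratio of 1.61 (1.55 to 1.67), and it was found in 46.9% of RGX-104 and 39.5% of control APCs, or 37.0% and 28.3% after thinning each cell to 2000 UMIs. Il1a had 61 UMIs on RGX-104 and 8 on control, a ratio of 5.60 (2.67 to 13.5), in 22 and 3 cells. The Il1a ratio was 1.83 with equal weight for each APC type and 3.35 as a mean of per-cell levels. Tnf had 287 UMIs on RGX-104 (28.8 CPM) and 156 on control (21.3 CPM), a ratio of 1.35 (1.11 to 1.65), in 99 and 67 cells. The direction of Tnf depended on how cells were weighted: its ratio was 0.946 as a mean of per-cell levels and 0.853 with equal weight for each APC type. The chemokine Ccl8 had 351 UMIs on RGX-104 and 44 on control, a ratio of 5.86 (4.27 to 8.21), in 24 and 9 cells. The Ccl8 ratio was 11.4 without the top cell of each library, 2.97 without cells that held at least 2 T cell or 2 B cell markers, and 1.80 over all barcodes.

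**Figure D1:**
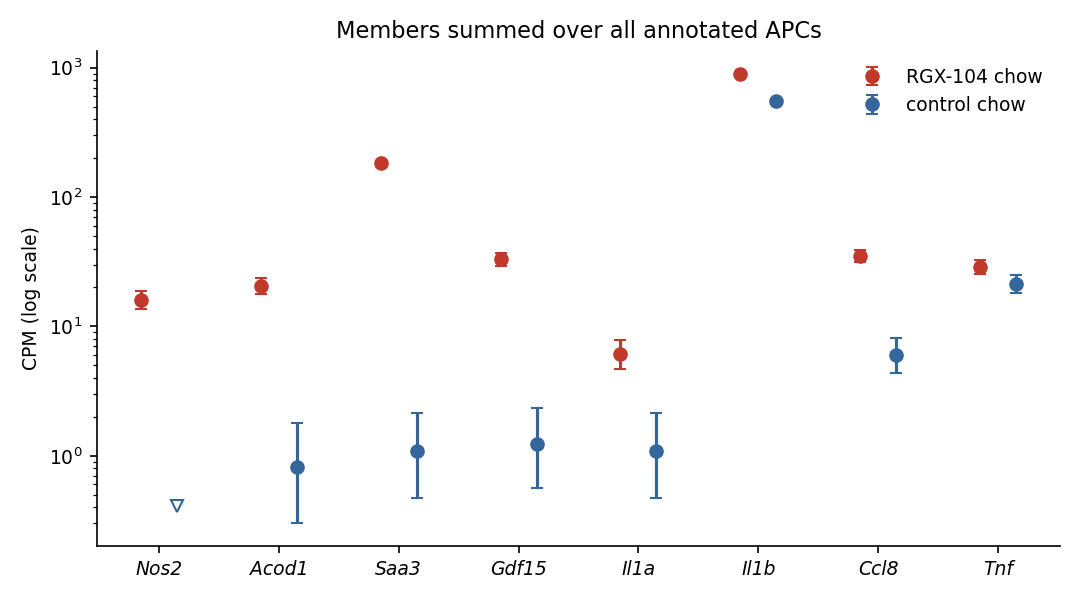
Level of each member in CPM (log scale) summed over all annotated APCs, RGX-104 chow in red left of control chow in blue; bars are 95% Poisson intervals, and the open triangle marks the level that 3 counts would give for Nos2, which had 0 control UMIs. Among the members with control UMIs the gap is widest for Saa3 (182 and 1.09 CPM) and narrow for Il1b (888 and 552 CPM) and Tnf (28.8 and 21.3 CPM).

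Where the UMIs lay split the members into 2 kinds. Of the RGX-104 UMIs in APCs, macrophages held 90.6% for Nos2, 77.1% for Acod1, 92.8% for Saa3, 95.7% for Gdf15, 96.7% for Il1a and 95.2% for Ccl8, although they held 6.24% of all APC UMIs. By contrast they held 5.51% for Il1b and 17.8% for Tnf. Cells named mono held 22.0% of the Acod1 UMIs, 25.0% of the Il1b UMIs and 8.81% of the Nos2 UMIs, the last being 14 UMIs in 1 cell, which also held C1qa, C1qb and C1qc. The dendritic and other remaining types held 69.4% of the Il1b UMIs and 73.5% of the Tnf UMIs.

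Outside macrophages and mono the other 6 members were close to nothing. In those 819 RGX-104 APCs there was 1 UMI of Nos2, 2 of Acod1, 2 of Gdf15, 0 of Il1a, 15 of Ccl8 and 12 of Saa3. Saa3 was found there in 1.47% of cells (0.759 to 2.55), and in 1.80% of RGX-104 T cells, which should not make it and which had a median of 5048 UMIs per cell. Ccl8 was found in 1.22% of those APCs and in 1.05% of RGX-104 T cells. Both shares were thus close to those of T cells. Whether they come from background or from low expression in dendritic cells was not tested. In control T cells, with a median of 4944 UMIs, Saa3 was found in 0 of 2099 cells, which allows a share of cells with a UMI of up to 0.143%.

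**Figure D2:**
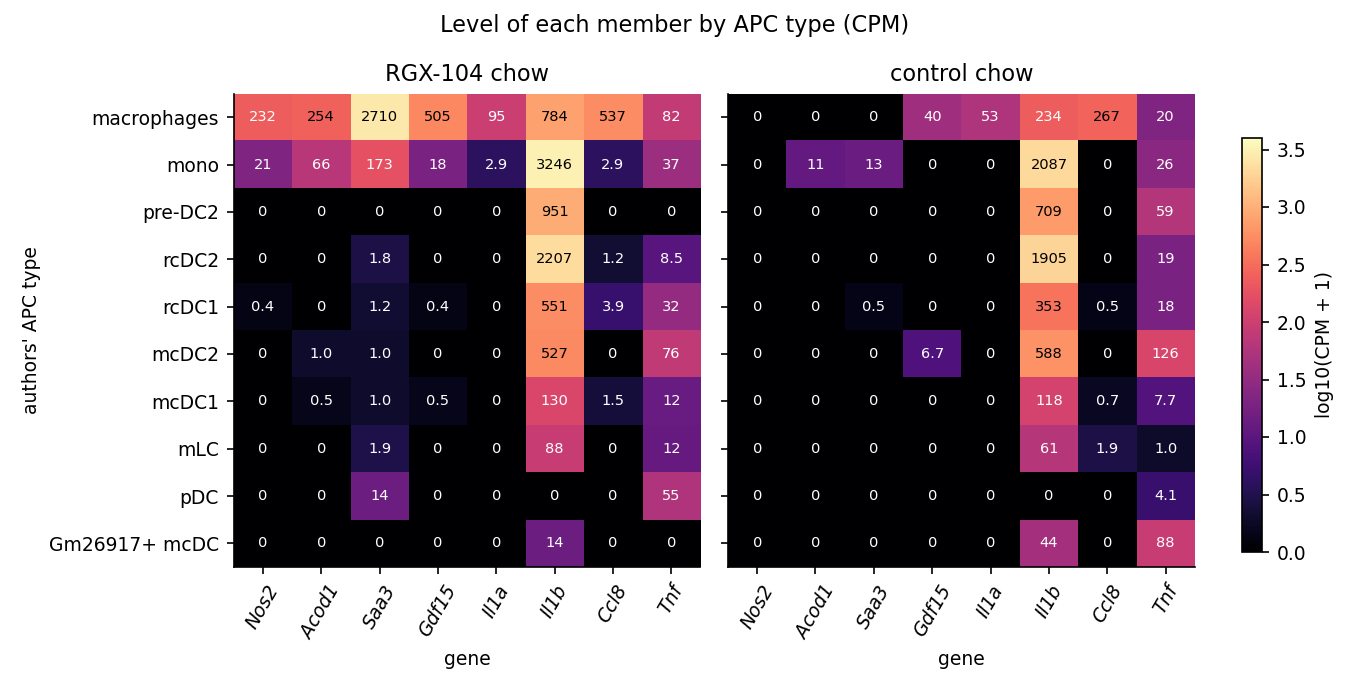
Level of each member in CPM by the authors' APC type (rows), with RGX-104 chow on the left and control chow on the right; colour is log10 of the level plus 1 and each number is the level. Nos2, Acod1, Saa3, Gdf15, Il1a and Ccl8 fill the macrophage row on RGX-104, while Il1b is highest in mono (3246 and 2087 CPM) and rcDC2 (2207 and 1905 CPM).

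Within macrophages all 8 members were at least 1.5-fold higher on RGX-104, beside 39.8% of the 6706 genes with at least 10 UMIs there, so a higher value was common among genes in these cells. Nos2, Acod1 and Saa3 reached those 10 UMIs through RGX-104 alone. The rule used UMIs by type and chow, so nothing is read from the 8 of 8 or from member counts in subsets of these cells. Nos2 reached 232 CPM (195 to 273) on RGX-104 and had 0 UMIs on control, which is at least 11.6-fold higher with the same 3 counts. It was found in 15 of 52 RGX-104 and 0 of 27 control macrophages. Acod1 reached 254 CPM and was found in 28 of 52 RGX-104 macrophages and 0 of 27 control macrophages, at least 12.7-fold higher. For both, a count of 0 of 27 allows a share of control cells with a UMI of up to 11.1% (3 of 27), which at their depth does not limit the share that expresses the gene. The exact intervals of the ratios began at 9.29 for Nos2 and 10.2 for Acod1.

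Saa3 was the most abundant member in RGX-104 macrophages, at 2709.6 CPM (2582 to 2842) in 35 of 52 cells, and it had 0 UMIs in the 27 control macrophages, at least 135-fold higher, with an exact interval that began at 110.0. With each cell thinned to 2000 UMIs, Saa3 was still found in 29 of 49 RGX-104 macrophages and 0 of 27 control macrophages. The thinned counts were 8 and 0 cells for Nos2 and 17 and 0 cells for Acod1. The 3 genes were thus still found in RGX-104 macrophages at the lower depth. Control macrophages had 0 UMIs of them before thinning, so their thinned counts of 0 were fixed in advance and add nothing. Among cells with at least 3 macrophage markers the bounds were 7.82 for Nos2, 8.58 for Acod1 and 91.0 for Saa3, lower because the same 3 counts are set against the fewer UMIs of 17 control cells.

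Gdf15 reached 505 CPM on RGX-104 and 40.0 on control, a ratio of 12.6 (5.73 to 34.7), and 8.50 (3.86 to 23.3) in cells with at least 3 markers. Il1b reached 784 CPM on RGX-104 and 234 on control, a ratio of 3.36 (2.38 to 4.87), and 2.26 (1.60 to 3.29) with at least 3 markers. It was found in 27 of 52 RGX-104 and 3 of 27 control macrophages. Tnf had 51 UMIs on RGX-104 and 3 on control, a ratio of 4.10 (1.33 to 20.5), and 2.77 (0.896 to 13.9) with at least 3 markers. After thinning, Tnf was found in 1 RGX-104 macrophage and 0 control macrophages, so its share could not be compared at equal depth.

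Il1a and Ccl8 stood apart from the others. Il1a was at 94.9 CPM on RGX-104 and 53.4 on control, a ratio of 1.78 with an interval of 0.846 to 4.31 that includes 1. Ccl8 was at 537 CPM on RGX-104 and 267 on control, a ratio of 2.01 (1.45 to 2.87). With at least 3 markers the ratios were 1.18 (0.561 to 2.87) for Il1a and 1.36 (0.978 to 1.94) for Ccl8. In macrophages with at least 5000 UMIs, 37 on RGX-104 and 12 on control, the Ccl8 ratio was 0.965 (0.652 to 1.48). The 5.60-fold and 5.86-fold values over all APCs therefore were not matched by the levels of these 2 genes within macrophages in CPM. Macrophages took 6.24% of APC UMIs on RGX-104 and 2.05% on control.

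Barcodes that the authors left without an annotation gave values for cells that took no part in the choice of the members. Of these, 59 on RGX-104 and 72 on control had at least 3 macrophage markers and fewer than 2 T cell and 2 B cell markers, at median depths of 1431 and 913 UMIs. Fewer genes than the 801 of the sparsest annotated cell were found in 34 of these RGX-104 and 59 of these control barcodes, and mitochondrial genes took at least 5% of UMIs in 23 and 33. Only 9 RGX-104 and 4 control barcodes passed on both counts, and the part of RNA quality in the ratios of these barcodes was not tested. Saa3 had 72 UMIs there in 17 of the RGX-104 barcodes and 0 on control, at least 14.7-fold higher. Il1b was at 1333 CPM on RGX-104 and 617 on control, a ratio of 2.16 (1.67 to 2.82). Ccl8 went the other way, at 505 CPM in 19 RGX-104 barcodes and 1538 CPM in 39 control barcodes, a ratio of 0.328 (0.256 to 0.419). Gdf15 was at 83.3 CPM on RGX-104 and 80.1 on control, a ratio of 1.04 (0.450 to 2.54). Nos2 had 3 UMIs and 0, too few for a ratio, and Acod1 had 5 and 0. These barcodes come from the same 2 libraries and so are no further replicate.

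**Figure D3:**
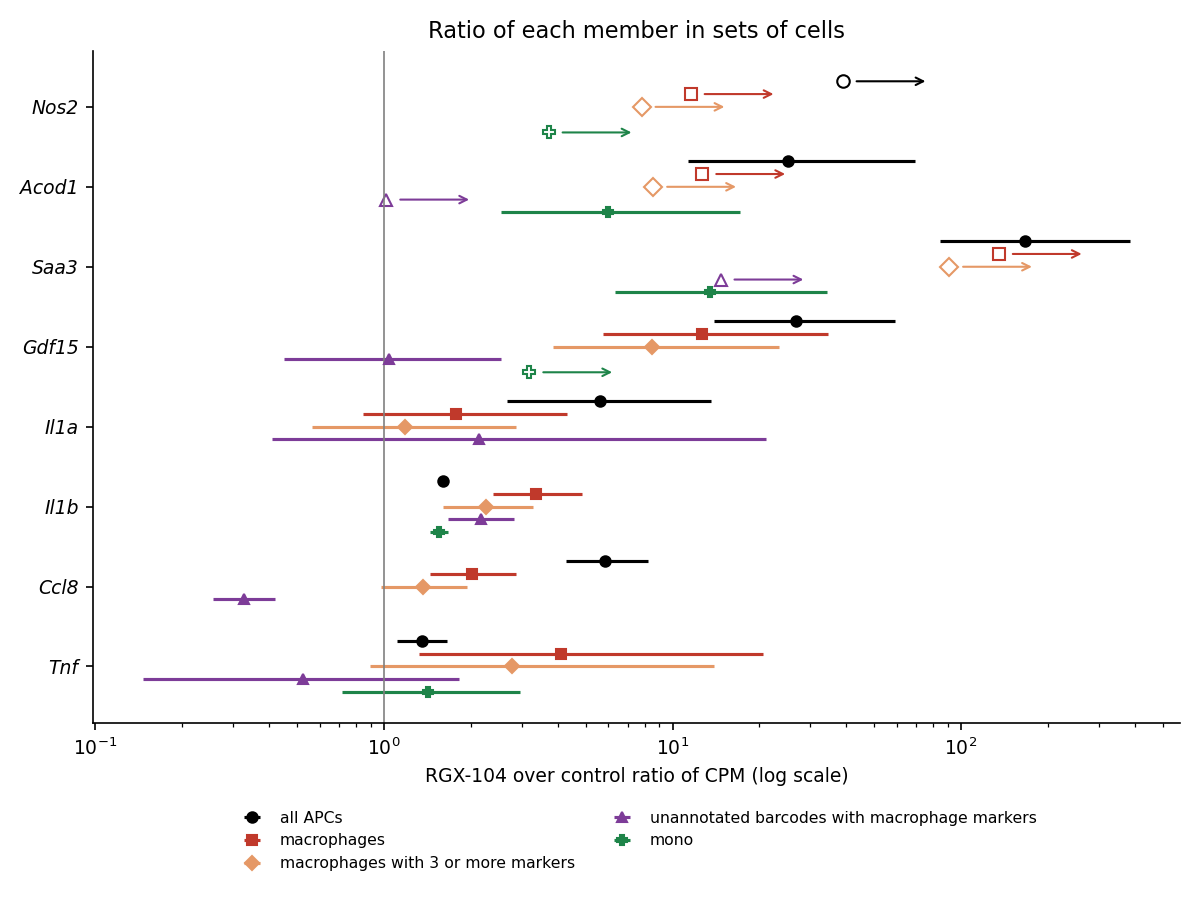
RGX-104 over control ratio of each member (log scale) in 5 sets of cells; bars are exact 95% intervals for counting error, and open symbols with arrows are lower bounds where control had 0 UMIs. Saa3 is at 13.5 or above in every set shown, while Ccl8 is at 5.86 in all APCs, 1.36 in macrophages with at least 3 markers and 0.328 in unannotated barcodes with macrophage markers.

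Cell by cell, RGX-104 macrophages held a median of 3 of the 8 members and control macrophages a median of 0. At least 1 member was found in 49 of 52 RGX-104 and 12 of 27 control macrophages, and at least 5 in 18 and 0. Nos2, Acod1 and Saa3 lay in overlapping sets of RGX-104 cells. All 15 Nos2-positive macrophages held Saa3 and 13 of them held Acod1, and 25 of the 28 Acod1-positive cells held Saa3, which was found in 35. Positive cells were deeper, with a median of 15228 UMIs for Saa3-positive and 5681 for Saa3-negative cells, and the part of depth in the co-detection was not tested beyond thinning. With each cell thinned to 2000 UMIs, Saa3 was found in 7 of 8 Nos2-positive and 14 of 17 Acod1-positive cells, and Acod1 in 4 of 8 Nos2-positive cells. Counting only cells with at least 2 UMIs of a gene, 11 of 13 Nos2-positive cells held Saa3 and 10 of 13 held Acod1.

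Ccl8 was not deeper in this way, with a median of 9072 UMIs in its 12 positive cells and 12492 in the others. Saa3 was found in 6 of those 12 cells, and Ccl8 in 6 of the 35 Saa3-positive cells. The Ccl8 level was 263 CPM in Saa3-positive and 1531 in Saa3-negative RGX-104 macrophages, whereas Acod1 was at 318 and 22.3 and Gpnmb, a gene of lipid-laden macrophages, at 756 and 14.9. In the 8 RGX-104 macrophages with a UMI of Marco, Cd5l or Siglec1, genes of lymph node sinus macrophages, Ccl8 was at 4155 CPM, against 90.4 in the other 44. Saa3 was at 746 CPM in those 8 cells and 2952 in the 44, and Il1b at 87.8 and 870. Among the 8, the pair with the most Saa3 (27 and 19 UMIs) each entered by 1 Cd5l UMI, had 0 Ccl8 UMIs and held all of the Il1b. The other 6 had at most 3 Saa3 UMIs each. Just 5 cells held 90.4% of the Ccl8 UMIs, 85.4% of the Nos2 UMIs and 54.2% of the Saa3 UMIs of RGX-104 macrophages. Arg1, whose product competes with Nos2 for arginine, had 0 UMIs in the APCs of both libraries.

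**Figure D4:**
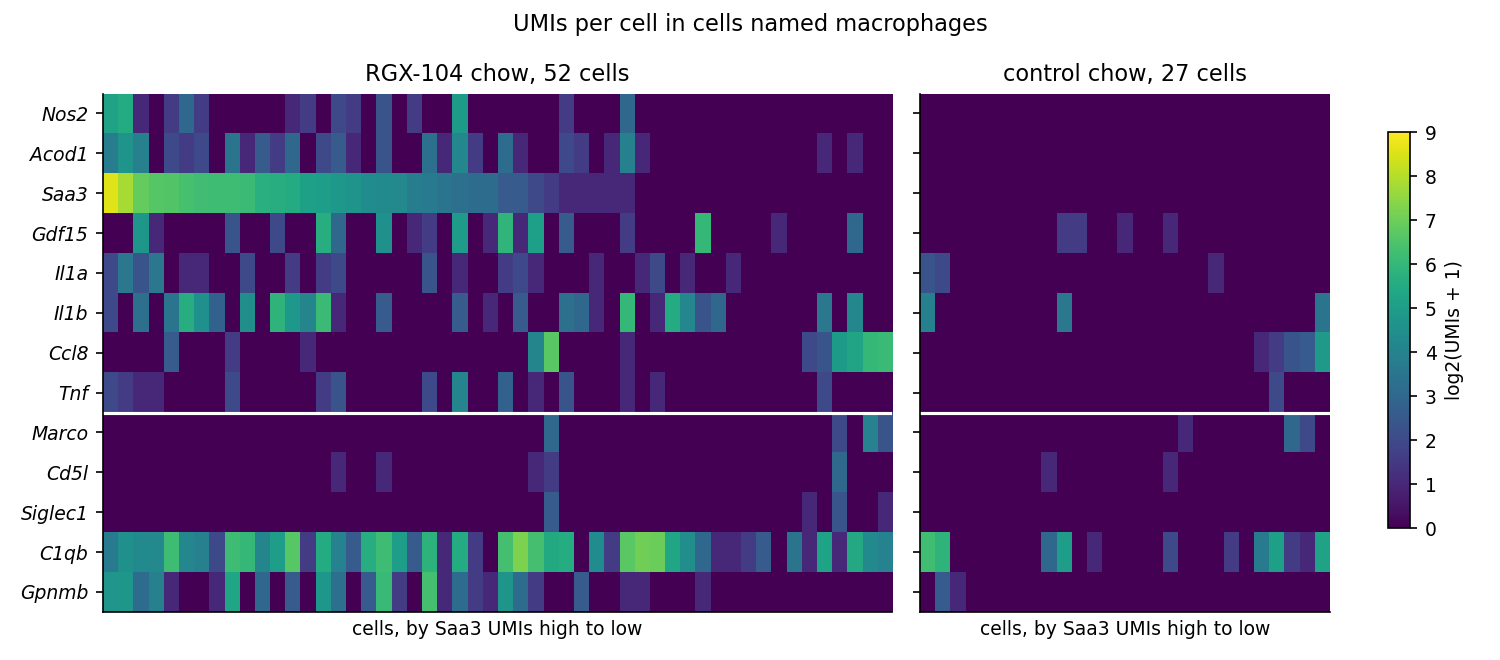
UMIs per cell, as log2 of the count plus 1, for the 8 members (above the white line) and 5 macrophage genes (below it) in each cell named macrophage, RGX-104 chow on the left and control chow on the right. Cells run from high to low Saa3; Nos2 and Acod1 sit mostly under the 35 Saa3-positive RGX-104 cells, and the highest Ccl8 counts with Marco sit to the right or at the low end of Saa3.

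Cells named mono, 78 on RGX-104 and 75 on control, together held UMIs of all 10 monocyte markers, at a summed 23417 and 20911 CPM. Single cells did not all hold each marker, and Vcan was found in only 7 and 9 of them. Il1b was at its highest there, in 93.6% of RGX-104 and 82.7% of control cells, with 3246 and 2087 CPM and a ratio of 1.56 (1.45 to 1.67). Acod1 was found in 16 RGX-104 and 3 control mono cells, a ratio of 5.99 (2.55 to 17.2), and after thinning in 8 and 2 cells. Saa3 had 118 UMIs on RGX-104 and 7 on control, a ratio of 13.5 (6.33 to 34.2), in 9 and 2 cells, with 51 of the 118 in 1 cell. Its share of 11.5% of RGX-104 mono cells lay above the 1.80% of RGX-104 T cells, and the thinned shares were 8.11% and 0.762%. Gdf15 had 12 UMIs in 3 RGX-104 mono cells, one of which held 8 of them and was positive for C1qa, C1qb and C1qc.

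Across the types Il1b kept a similar order in both libraries. On RGX-104 it ran from mono (3246 CPM) and rcDC2 (2207) through pre-DC2 (951), macrophages (784), rcDC1 (551) and mcDC2 (527) to mcDC1 (130.2), mLC (88.2) and Gm26917+ mcDC (13.5), with 0 in pDC. On control it ran from mono (2087), rcDC2 (1905), pre-DC2 (709), mcDC2 (588), rcDC1 (353) and macrophages (234) to mcDC1 (118), mLC (61.2) and Gm26917+ mcDC (43.9), with 0 in pDC. The intervals of pre-DC2 and macrophages, of rcDC1 and mcDC2, and of mLC and Gm26917+ mcDC overlapped on RGX-104, and those of mono and rcDC2, of pre-DC2 and mcDC2, and of mLC and Gm26917+ mcDC on control. T cells gave the background: 4.33 CPM in 2.26% of RGX-104 cells, and 1.57 CPM in 0.858% of control cells.

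The Il1b ratio was 1.56 (1.43 to 1.71) in rcDC1, 1.44 (1.04 to 2.02) in mLC, 1.16 (1.09 to 1.23) in rcDC2, 1.11 (0.910 to 1.35) in mcDC1 and 0.895 (0.770 to 1.04) in mcDC2. The interval lay above 1 in macrophages, mono, rcDC1, mLC and rcDC2 and included 1 in mcDC1 and mcDC2. With equal weight for each type the ratio over APCs was 1.39.

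Tnf differed in direction between types. It was higher on RGX-104 in rcDC1, at 32.0 and 18.2 CPM and a ratio of 1.76 (1.19 to 2.63), with 25.6% of the RGX-104 UMIs in 1 cell. It was lower in mcDC2, the highest of the types with 50 or more cells on both chows, at 76.0 and 126 CPM and a ratio of 0.604 (0.421 to 0.871). It was at 8.53 and 18.5 CPM in rcDC2, a ratio of 0.460 (0.203 to 1.04). In mLC the ratio of 12.2 (1.80 to 520.2) rested on 12 UMIs and 1 UMI. T cells make Tnf themselves, at 11.4 CPM on RGX-104 and 14.4 on control, and so give no background for it.

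The same genes were set beside lists of related genes, described by the count at least 1.5-fold higher or lower and by the median log2 ratio, which over all genes was -0.06 in all APCs. Counts and medians include the members, here and in the sets of cells below, so part of them was fixed by the choice of members. Nos2 and Acod1 are in the first list, and Il1a and Il1b in the IL-1 list. Tnf, Ccl8, Saa3 and Gdf15 are in the TNF, chemokine, acute phase and stress lists. Of the nitric oxide, itaconate and arginine list 5 of 9 measured genes were higher and 0 lower, and their median was 0.83. Besides Nos2 and Acod1 these included Hmox1, which breaks down heme, at 4.61-fold (3.18 to 6.87), Sod2, a mitochondrial superoxide dismutase, at 1.89-fold, and Slc7a11, a cystine transporter, at 1.78-fold. Gch1, which makes the Nos2 cofactor, was at 1.30-fold. Of the IL-1 list 6 of 11 were higher, among them the binding protein Il18bp at 2.38-fold (1.98 to 2.88), the receptor antagonist Il1rn at 2.05-fold (1.72 to 2.46), the decoy receptor Il1r2 at 1.92-fold (1.58 to 2.34) and the inflammasome sensor Nlrp3 at 1.505-fold. Of the RGX-104 Il1r2 UMIs 0.521% lay in macrophages, in contrast to 48.5% for Il18bp.

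Of the TNF list 1 of 12 was higher, Tnfaip2, a TNF-induced gene, at 3.19-fold (2.90 to 3.52), while Tnfaip3, Adam17 and Tnfrsf1a were at 1.18-fold, 1.16-fold and 1.07-fold. Of the monocyte and neutrophil chemokine list 5 of 13 were higher: besides Ccl8, Ccl3 at 2.99-fold, with 44.0% of RGX-104 UMIs in 1 cell, Cxcl2 at 2.52-fold, Ccl6 at 1.89-fold and the receptor Ccr1 at 1.70-fold (0.972 to 3.08). Of the acute phase and Toll-like receptor list 9 of 12 were higher, with Fpr2, a formyl peptide receptor, at 5.32-fold (3.32 to 8.97), Il6 at 3.46-fold, with 35.9% of RGX-104 UMIs in 1 cell, Clec4e at 3.30-fold and the prostaglandin enzyme Ptgs2 at 2.20-fold (2.02 to 2.41). No gene of the NF-kB and C/EBP list (0 of 11) was at least 1.5-fold higher or lower, with Hif1a at 1.42-fold, Nfkbiz at 1.31-fold, Cebpb at 1.14-fold and Zfp36 at 0.901-fold. The count can be compared with the 4.14% of all genes that were higher and 4.44% that were lower.

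Of the interferon gamma list 2 of 12 were higher, the chemokines Cxcl10 at 3.57-fold (3.14 to 4.07) and Cxcl9 at 2.48-fold (2.33 to 2.64). The interferon regulatory factors Irf1 and Irf8 were at 1.24-fold and 0.796-fold. Of the integrated stress response list, in which Gdf15 is a known target, Gdf15 was the 1 of 9 that was higher, with Slc3a2 at 1.32-fold, Ddit3 at 1.27-fold, Psat1 at 0.798-fold and Chac1 at 0.801-fold. Of the LXR target and lipid list 13 of 16 were higher, with a median of 2.03, including Abca1 at 14.5-fold (10.9 to 19.7) and Scd1 at 10.1-fold (7.51 to 13.99). Gpnmb and Mertk, at 34.4-fold and 9.96-fold, had 98.7% and 97.9% of their RGX-104 UMIs in macrophages.

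Without the macrophages, 3 of the 4 members still measured were at least 1.5-fold higher, beside 3.14% of 10239 genes. These were Saa3 at 12.5-fold (6.14 to 29.5), Acod1 at 6.01-fold (2.56 to 17.2) and Il1b at 1.60-fold (1.54 to 1.66). Acod1 had 47 UMIs on RGX-104 and 6 on control there, and Saa3 had 130 and 8. Both thus counted as measured mostly through RGX-104. The rule used UMIs by type and chow, so nothing is read from the 3 of 4 without the macrophages. The higher counts of the lists were then 3 of 8 for nitric oxide, itaconate and arginine, 3 of 10 for IL-1, 4 of 11 for acute phase and Toll-like receptors, 2 of 11 for chemokines with Ccl2 lower at 0.617-fold (0.440 to 0.864), beside 4.56% of all genes lower, 1 of 12 for TNF, 2 of 12 for interferon gamma, 0 of 11 for NF-kB and C/EBP, 0 of 8 for integrated stress and 9 of 13 for LXR targets. Il1r2 at 1.99-fold, Il1rn at 1.85-fold, Ptgs2 at 1.99-fold and Cxcl10 at 3.01-fold were among those outside macrophages. Hmox1 was at 1.74-fold and Clec4e at 1.33-fold there.

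In macrophages, where 39.8% of all genes were higher, the counts were 8 of 9, 7 of 10, 9 of 11, 9 of 12, 10 of 13, 8 of 11, 9 of 12, 7 of 7 and 13 of 14 for the lists in the order first given. Lower genes there were 1 of 10 in the IL-1 list, 2 of 12 in the chemokine list and 2 of 13 in the acute phase list. The other lists had 0 lower, beside 19.5% of all genes. In macrophages with at least 3 markers, where 31.8% of genes were higher, 6 of 8 members were higher, all but Il1a and Ccl8, and the list counts in the same order were 8 of 9, 5 of 10, 7 of 11, 5 of 12, 9 of 13, 6 of 11, 8 of 12, 5 of 7 and 11 of 14. Lower genes in that set were 1 of 10 for IL-1, 1 of 11 for TNF and 3 of 12 for chemokines. They were 3 of 13 for acute phase and 1 of 11 for NF-kB and C/EBP. The other lists had 0 lower, beside 25.8% of all genes.

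**Figure D5:**
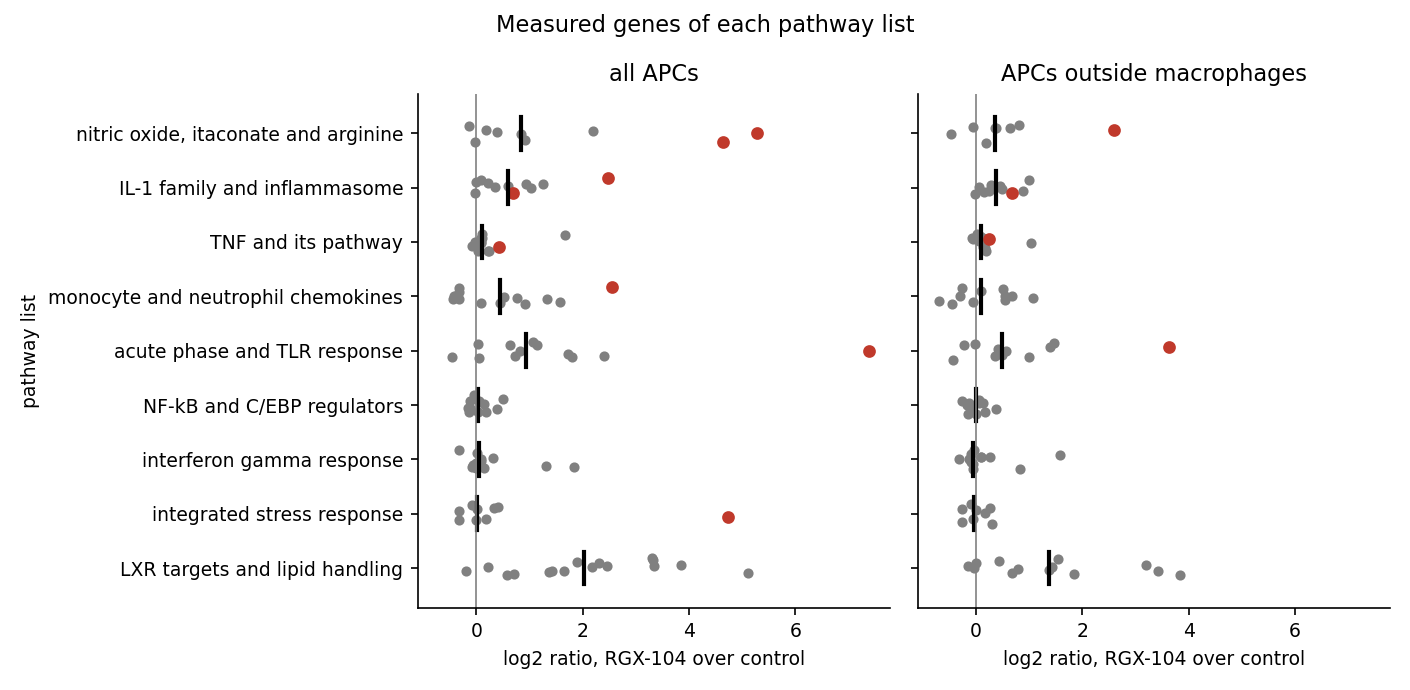
Log2 ratio of RGX-104 over control for each measured gene of 9 related lists (grey; members in red; black bar, list median), in all APCs on the left and in APCs outside macrophages on the right; a gene with 0 control UMIs is drawn at its lower bound. The LXR list has the highest median (2.03 in all APCs, 1.37 outside macrophages) and the NF-kB and C/EBP list lies near 0 (0.02 in all APCs). Medians include the members where a list holds any.

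Over the 18 groups of type and library with at least 20 cells, the genes closest in pattern were named by Pearson's r of log2 levels. The groups share libraries and differ in depth, so the values are descriptive. Nos2, Acod1, Saa3, Gdf15, Il1a and Ccl8 lay mostly in macrophages, which are few of the 18 groups. For them a high r mainly marks genes of macrophages and does not show that the same cells held both genes. Il1a and Ccl8 had an r of 0.996, yet Ccl8 was found in 1 of 20 Il1a-positive RGX-104 macrophages. Nos2 went with Gdf3 (0.94), Nampt (0.93) and Clcn7 (0.92), Acod1 with Aoah (0.96), Fpr2 (0.95) and Gdf3 (0.94), and Saa3 with Gdf3 (0.95), Nampt (0.95) and Aoah (0.95). Gdf15 went with the lipid-associated macrophage genes Gpnmb (0.97) and Trem2 (0.95) and with Mertk (0.95), an efferocytosis receptor. Il1a went with Mertk (0.98), C1qc (0.97) and C1qa (0.97), and Ccl8 with Mertk (0.98), Marco (0.97) and C1qa (0.96). Il1b went with Ifitm2 (0.93), Pim3 (0.88) and Stk40 (0.87). Tnf had no close partner, the nearest being Bub1b (0.76) and Egr1 (0.75).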

How the data were processed

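The 2 RNA matrices that the authors deposited hold UMI counts per gene and barcode, and, per the file headers, Cell Ranger 5.0.0 made them. The mm10 genome and Seurat 5.0.3 are named in the submitters' processing notes. The deposited annotation table gives each cell a type, total and gene counts, and a mitochondrial share in percent, and it names all cells singlets. Cells were joined to barcodes by those 3 values, and each of the 2944 RGX-104 and 2881 control cells matched exactly 1 barcode. The 2 TCR libraries were not used.

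Counts were summed over the cells compared and divided by their total UMIs. With 1 library per chow no p-value was computed, and intervals and floors cover counting error only: exact Poisson for a level, exact conditional binomial for a ratio, Clopper-Pearson for a share, and 3 counts of the total as the limit at a count of 0. A gene counted as measured once the 2 libraries together held 50 UMIs (10 within macrophages). Doublets were not called again. Members and lists were chosen with earlier results of these data known. Of each list, up to 4 non-members with the largest absolute log2 ratio in all APCs were named, and for each member the 3 most similar genes over groups of at least 20 cells, on log2 of the level plus 10. One gene of the interferon gamma list and one of the similar genes are not reported here. Il1r2, Hmox1, Clec4e and the other list genes given outside macrophages, and the genes used to split macrophages, were chosen after their values were seen. The splits by Saa3 and by Marco, Cd5l or Siglec1, the unannotated barcodes with macrophage markers and the sets with at least 3 markers or at least 5000 UMIs were added after seeing the data. Ratio, interval and thinning code was tested on simulated data. Tools were Python 3.11.15, scipy 1.17.1 and, for TMM factors, edgeR 4.0.16.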

Additional observations from a re-analysis of the deposited data

Results flagged for a closer look

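Members were also counted in barcodes that the authors left without annotation, 5727 on RGX-104 and 4465 on control, with median depths of 1161 and 1147 UMIs. They held 41 Nos2 UMIs on RGX-104 and 0 on control, 59 and 8 of Acod1, 716 and 3 of Saa3, 43 and 15 of Gdf15, 23 and 6 of Il1a, and 1978 and 618 of Il1b. Saa3 was found in 118 RGX-104 and 3 control barcodes, and 1 RGX-104 barcode held 219 of the 716 UMIs. For Nos2, 2 RGX-104 barcodes held 31 of the 41 UMIs, and 1 of these 2 had at least 2 T cell markers. These 6 genes exceeded the control level in the barcodes without annotation. Ccl8, with 326 and 269 UMIs, and Tnf, with 271 and 218, did not exceed it in CPM (0.898-fold and 0.921-fold). The barcodes come from the same 2 libraries and are no separate support. Saa3 was also found in RGX-104 T cells, and the part of free RNA and doublets in these counts was not tested.

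The RGX-104 over control ratio of Tnf lay on opposite sides of 1 in different APC types: 4.10 in macrophages, 12.2 in mLC and 1.76 in rcDC1, but 0.604 in mcDC2. As given above, the mLC ratio rested on very few UMIs and the rcDC1 ratio in part on 1 cell. The macrophage ratio rested on 51 RGX-104 and 3 control UMIs. The difference between types was not tested, since each type is 1 set of cells per chow.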

How the results depend on the processing

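The count of members at least 1.5-fold higher in all APCs, 7 as reported, was 3 without the cells named macrophages and 3 with cells thinned to 2000 UMIs, where Nos2, Acod1 and Il1a no longer reach 50 UMIs and the Il1b ratio was 1.46 (1.34 to 1.58); it stayed within 1.5 times of 7 under the 10 other settings. Of 69 alternative ratios of single members in all APCs, 66 were above 1 and 58 at least 1.5, and 29 lay outside the interval of the value reported. The 3 below 1 were all Tnf, the lowest 0.853; its thinned ratio was 0.978. Over all barcodes the Acod1 ratio was 10.9 and the Gdf15 ratio 12.8. The Saa3 ratio was 647 (179 to 5348) without cells that held at least 2 T cell or 2 B cell markers and 527 (146 to 4357) without the top cell of each library. The Ccl8 ratio within macrophages turned to 0.965 in cells with at least 5000 UMIs; the cause was not tested. No value could be given for Nos2 with equal type weights or per-cell means, where control is 0, nor for Il1a without macrophages, where both libraries hold 3 UMIs or fewer.

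No paired analysis was possible because each chow has 1 RNA library and the labels carry no replicate numbers, and for the same reason no replicate could be left out. The control macrophages are few (27) and shallow, so the counts of 0 for Nos2, Acod1 and Saa3 there limit only the share of cells with a UMI, to 11.1%, and not the share that expresses them, and differences between mice cannot be told apart from the effect of the chow.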
